A study of Mus musculus with 6 samples.

Results

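Mesothelial marker genes were examined in cultured mouse liver cells. The mesothelium is the single layer of flat epithelial cells that covers the liver and the other organs of the body cavities. The set held 10 genes chosen by name: Msln, Wt1, Upk3b, Muc16, Bnc1, Lrrn4, Gpm6a, Podxl, Pdpn and Calb2. Every array probe whose transcript accession mapped to one of these symbols was taken, which gave 10 probes for 9 genes out of 39429 probes and 20659 named genes in all. Pdpn had 2 probes, each of the other measured genes had 1, and Muc16, a large membrane mucin known clinically as CA125, had no probe named here. The cells had been sorted from adult mouse liver by CD63, a tetraspanin of endosomes and exosomes, before culture. The DDC injury group (3 arrays) came from livers with DDC-induced injury, DDC being a porphyrinogenic compound that causes cholestatic damage, and the no-injury group (3 arrays) from livers without injury. Both groups shared the culture medium, with serum, HGF, EGF, an insulin, transferrin and selenium supplement, dexamethasone and nicotinamide. VEGF and bFGF were given to some cultures whose names the sample titles do not carry, so the arrays they may concern are not known. The series speaks of 6 cell lines, and nothing in the labels says that the samples of a group came from separate animals, so p-values measure only the spread between these samples.

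Mesothelial cells keep epithelial features such as keratins and apical microvilli, and they also express genes usually seen in mesenchyme. During development the coelomic epithelium gives rise to mesothelium, and the zinc-finger transcription factor Wt1 is required in it. Wt1-positive mesothelium is known as a source of stellate cells and fibroblasts in the liver. None of the markers is specific on its own: podocalyxin is also made by endothelium and kidney podocytes, podoplanin by lymphatic endothelium and some fibroblasts, and calretinin by neurons.

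Expression was measured on 1-colour Agilent arrays, each with 43020 spots besides its controls. The processed signal had a 75th percentile of 1441 to 2271 intensity units. By the marks of the Feature Extraction software that read the spots, 65.0% to 74.8% of spots stood well above background and 0 were saturated. The signals of no-injury replicates 1 and 3 differed by no more than could be told from the noise of repeated spots over 137 bright probes printed 10 times (chi-square 137.7, 136 degrees of freedom, p = 0.443), so their mean entered as 1 sample. Over 207 probes that included dimmer ones the same chi-square test gave p = 0.0191, so this agreement holds for bright probes only. No-injury replicate 2 differed from both of the others, over the bright probes by 1.31 and 1.69 times the spot noise against replicates 1 and 3. Between DDC injury arrays this spread was 4.07 to 14.8 times the spot noise. Averaging no-injury replicates 1 and 3 left 3 samples after DDC injury and 2 without injury, a number that limits the precision. These 2 no-injury samples lay much closer to each other than the DDC injury samples did. The 6 arrays were scanned in 3 scans, each with arrays of 1 group, so scan and group cannot be told apart. DDC injury replicate 1 was scanned on another day than the other 5 arrays, and a comparison without it therefore also lies within 1 scan day.

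Members of the set moved in both directions. Wt1 and Upk3b fell in the DDC injury group, Podxl rose, and Msln, Bnc1, Gpm6a and the brighter Pdpn probe did not pass the test. Of the 10 probes, 7 were tested, since a probe had to be well above background on at least 3 arrays. Of these, 1 was called higher and 2 lower (limma, Benjamini-Hochberg adjusted p under 0.05 over all probes tested). Upk3b met this filter through the no-injury arrays alone. Lrrn4, well above background on 2 DDC injury arrays only, did not meet it. Without the filter 1 probe was again called higher, Lrrn4 in place of Podxl, and the same 2 lower. Across all 27427 probes tested, 15.5% were called higher and 13.8% lower, so calls of either kind were common on these arrays. The median difference, DDC injury minus no injury, was -0.42 on the log2 scale over all 10 marker probes and 0.015 over all probes of the array. The median of the markers was 0.06 without DDC injury replicate 1, and 0.04 after normexp background correction, so its sign is not settled. Values below are relative log2 signals, that is log2 processed signals from which each array's 75th percentile was taken off, unless intensity units are named. Values of different probes are not comparable.

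**Figure D1:**
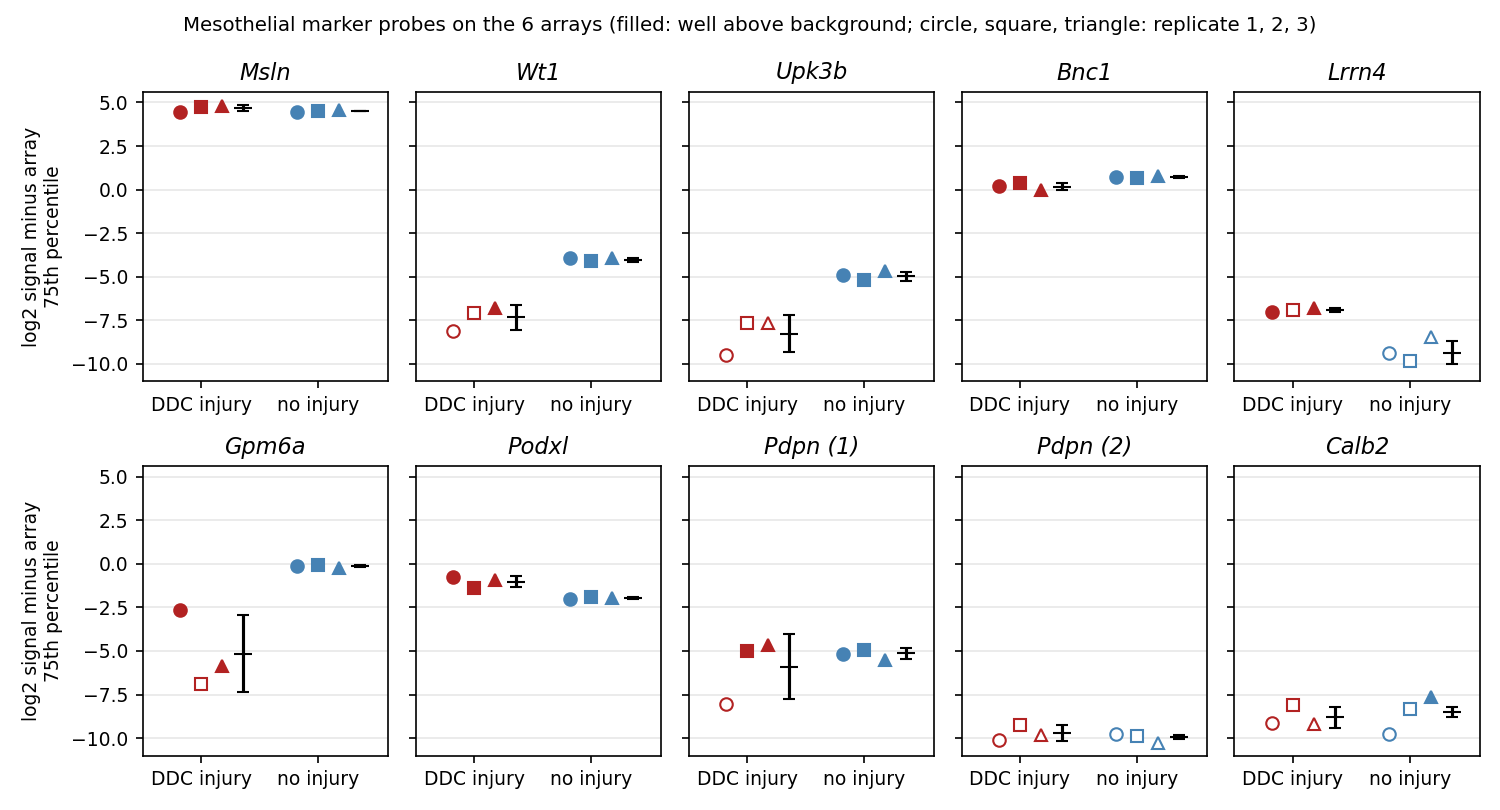
Each panel shows 1 marker probe, with the log2 signal minus the array's 75th percentile on the y axis and the 3 arrays of each group as a circle, a square and a triangle for replicates 1, 2 and 3. Filled symbols were well above background, and the black bar gives the mean and SD over 3 DDC injury and 2 no-injury samples. Wt1 and Upk3b lay lower on all DDC injury arrays, Podxl higher, and the DDC injury arrays were spread widely for Gpm6a and the first Pdpn probe.

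Wt1, the transcription factor of the set, was at 133, 128 and 139 intensity units on no-injury arrays 1, 2 and 3 and at 8.09, 10.7 and 14.2 on DDC injury arrays 1, 2 and 3. The groups did not overlap, and all 3 DDC injury arrays lay near the background, with only replicate 3 well above it. Wt1 fell by 3.30 ± 0.45 in log2 units (SE, n = 3 and 2), or 9.86-fold, with a limma adjusted p of 0.0113. On the relative scale its mean was -7.33 ± 0.71 (SD, n = 3) after DDC injury and -4.03 ± 0.11 (SD, n = 2) without injury. The size of this fall depends on how the background is removed. The raw spot signal of Wt1 was 56.0 to 62.0 on the DDC injury arrays and 163.5 to 178.5 on the no-injury arrays, over a local background of 20 to 24. With normexp correction, which keeps a larger floor under dim spots, the difference was -0.94 (limma adjusted p = 0.0350), and in the deposited value table it was -1.55 (adjusted p = 0.00157). Over the 19 alternatives that tested it, the limma adjusted p of Wt1 ranged from 0.00114 to 0.109, and it missed the threshold when all 3 arrays without injury were averaged into 1 sample (0.109) and without no-injury replicate 2 (0.108).

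Upk3b, a uroplakin first known from bladder epithelium and widely used as a mesothelial marker, gave 69.9, 60.8 and 82.3 intensity units on no-injury arrays 1, 2 and 3. On DDC injury arrays 1, 2 and 3 it gave 3.19, 7.06 and 7.85 units, none of them well above background. The groups did not overlap, and the level after DDC injury lay too near the background to be measured. The measured means were -8.27 and -4.99, a difference of -3.28 (limma adjusted p = 0.0284). Each dim array was then set to the lowest signal of any probe well above background, or to the probe's own if higher. By this reckoning of the processed signal Upk3b was 5.47-fold lower after DDC injury. This is not a strict bound, since probes above that lowest signal were not always well above background. On DDC injury array 2 Gpm6a, at -6.891, was not, against a lowest signal of -6.965. The fold holds for the processed signal only, since other ways of removing the background gave smaller differences. In the deposited value table Upk3b differed by -1.35 (limma adjusted p = 0.00278) and with normexp by -0.67, which did not pass (adjusted p = 0.140). Its limma adjusted p was 0.169 with the 3 arrays without injury averaged, 0.161 without no-injury replicate 2 and 0.0614 without DDC injury replicate 3, and the lowest over 19 alternatives was 0.00278.

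**Figure D2:**
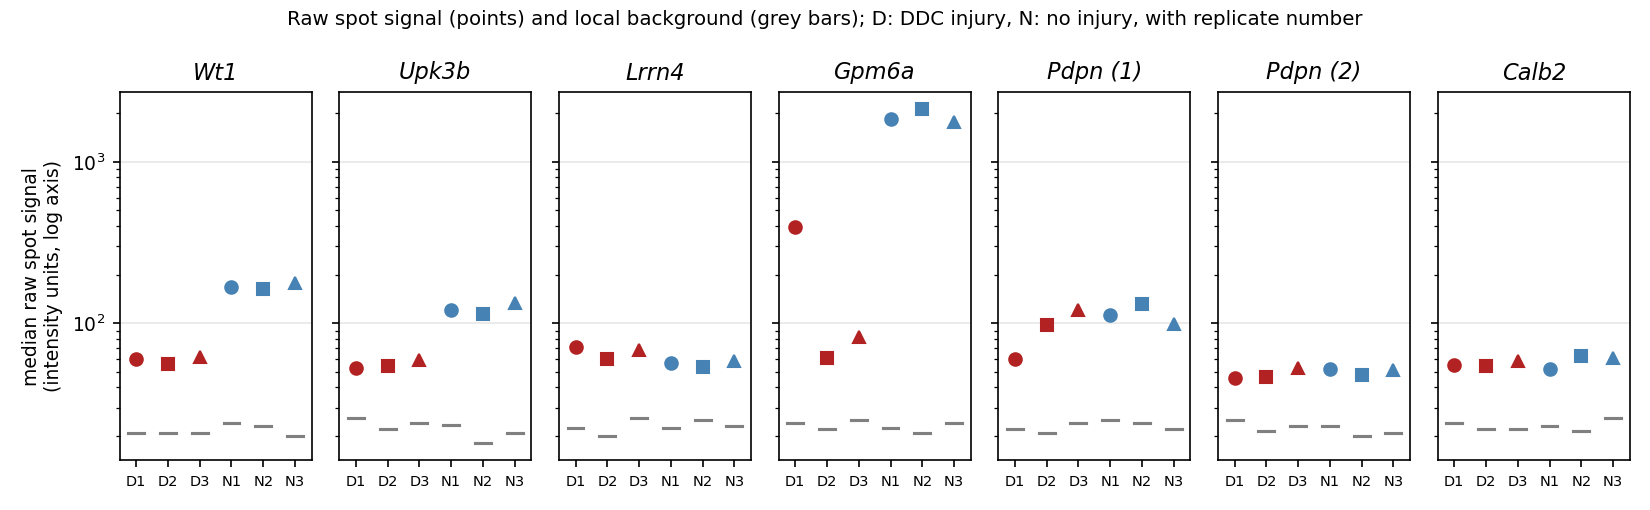
The 7 marker probes that were not well above background on all 6 arrays are shown with the median raw spot signal as points and the local background as grey bars, on a log axis, for DDC injury arrays D1 to D3 and no-injury arrays N1 to N3. Raw Wt1 signals were 56.0 to 62.0 on the DDC injury arrays and 163.5 to 178.5 on the no-injury arrays, and raw Gpm6a signal was higher on DDC injury array 1 than on arrays 2 and 3.

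Msln, which encodes the surface glycoprotein mesothelin, was well above background on all 6 arrays. Its signal was 50357, 38384 and 43820 intensity units on DDC injury arrays 1, 2 and 3 and 44436, 50933 and 51257 on no-injury arrays 1, 2 and 3. Relative to the 75th percentile the groups overlapped, at 4.47 to 4.80 after DDC injury and 4.43 to 4.59 without injury. The difference was 0.15 ± 0.15 (SE, limma adjusted p = 0.496), with a 95% interval from -0.24 to 0.54, which is 0.846-fold to 1.46-fold. The sign turned under both forms of quantile normalization (-0.07 and -0.10) and in the deposited value table (-0.10), with adjusted p from 0.141 to 0.769 over its 20 alternatives.

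Bnc1, which encodes the zinc-finger protein basonuclin 1 of keratinocytes, germ cells and mesothelium, was likewise well above background on every array. It gave 0.18, 0.36 and -0.03 on DDC injury arrays 1, 2 and 3 and 0.74, 0.67 and 0.76 on no-injury arrays 1, 2 and 3. All 3 DDC injury values lay below the no-injury values. The difference was -0.54 ± 0.16 (SE) and did not pass (limma adjusted p = 0.0683, range over 20 alternatives 0.016 to 0.316). Bnc1 passed in 6 of those alternatives, the deposited value table (-0.60, adjusted p = 0.0379) and the fit without DDC injury replicate 2 (-0.64, adjusted p = 0.0342) among them.

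Podxl encodes podocalyxin, a sialomucin of the apical membrane that keeps neighbouring surfaces apart. It gave 1329, 552 and 822 intensity units on DDC injury arrays 1, 2 and 3 and 504, 585 and 545 on no-injury arrays 1, 2 and 3. In these units the groups overlapped, while relative to the 75th percentile they did not, with -0.77, -1.38 and -0.94 after DDC injury against -2.03, -1.91 and -1.97. Podxl rose by 0.93 ± 0.22 (SE, 1.90-fold, limma adjusted p = 0.0416). With normexp the difference was 0.95 and in the deposited values 1.03, close to the value from the processed signal. The call ended without the filter on dim probes (limma adjusted p = 0.0743), with the scan as a random block (0.0814), with the 3 arrays without injury averaged (0.228), without DDC injury replicate 3 (0.117) and without no-injury replicate 2 (0.220), and the lowest adjusted p of the 20 alternatives was 0.00754.

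Gpm6a encodes a membrane-spanning glycoprotein best known from neurons and also used to mark liver mesothelium. On no-injury arrays 1, 2 and 3 it gave 1868, 2088 and 1840 intensity units. On DDC injury arrays 1, 2 and 3 it gave 358, 12.1 and 26.6 units, with replicate 2 not well above background. All DDC injury values lay below the no-injury values, and DDC injury replicate 1 was 18.7-fold above replicate 2 and 9.31-fold above replicate 3 on the relative scale. The mean difference was the largest of the tested marker probes at -5.02 ± 1.36 (SE, 32.4-fold lower), and it did not pass (limma adjusted p = 0.0572). Without DDC injury replicate 1 it was -6.26 (limma adjusted p = 0.00426). It also passed with normexp (-3.47, adjusted p = 0.010) and in the deposited value table (-4.06, adjusted p = 0.0221), over a range from 0.00426 to 0.255 in 19 alternatives.

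The SD over the DDC injury arrays was larger than that over the 3 no-injury arrays for 8 of the 10 marker probes, by 32.1 times for Gpm6a and 2.21 times for Msln. Lrrn4 and Calb2, both dim, were the exceptions. The wider spread was not particular to the markers. Over bright repeated probes of the whole array, pairs of DDC injury arrays differed by 4.07 to 14.8 times the spot noise. Pairs of no-injury arrays differed by 1.01 to 1.69 times. Among the 4 probes that were not called, Msln and Bnc1 had SDs of 0.17 and 0.20 over the DDC injury samples, while Gpm6a had 2.21 and the first Pdpn probe 1.85. One estimate of spread served both groups in the fit.

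**Figure D3:**
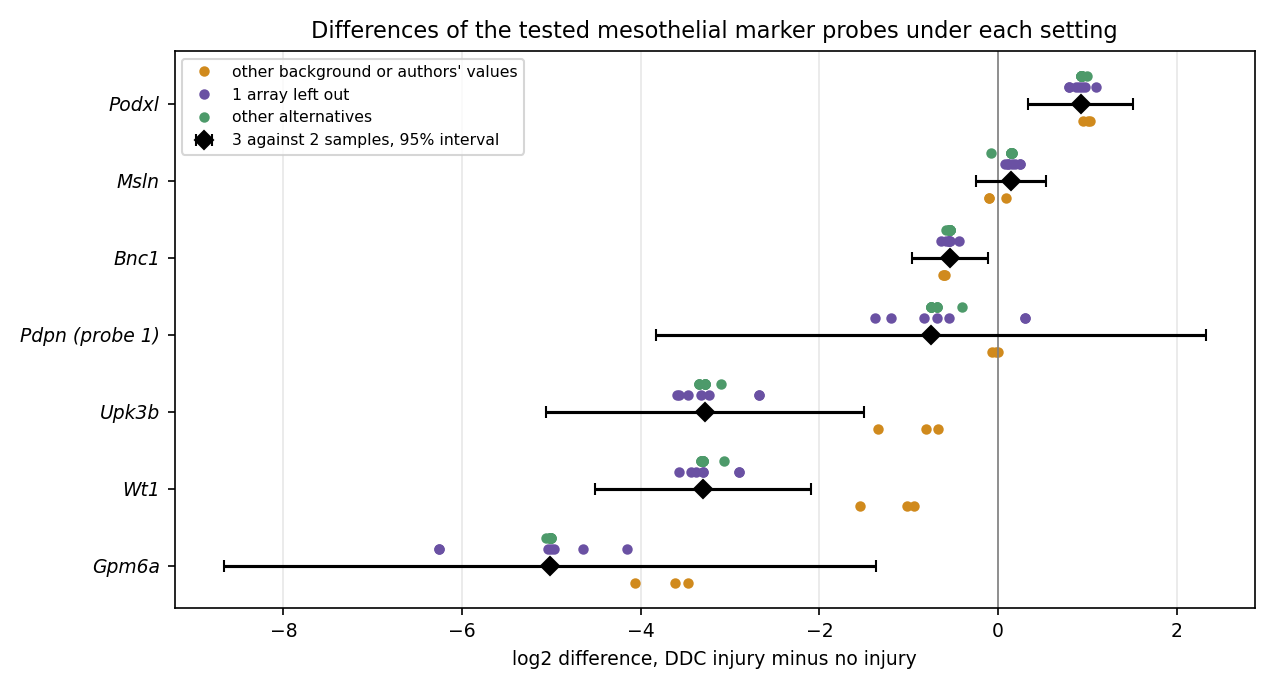
The x axis is the log2 difference, DDC injury minus no injury, for the 7 tested marker probes. Black diamonds give the fit of 3 against 2 samples with its 95% interval, and coloured dots the same difference under other background corrections or the authors' values, with 1 array left out, or under other alternatives. The dots of Podxl all lie above 0, while those of Wt1 and Upk3b move to -0.94 and -0.67 with normexp.

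Pdpn encodes podoplanin, a mucin-like membrane protein linked to the cytoskeleton through ezrin and moesin. Its first probe gave 8.73, 44.4 and 62.4 intensity units on DDC injury arrays 1, 2 and 3 and 56.0, 71.9 and 47.2 on no-injury arrays 1, 2 and 3. DDC injury replicate 1 stood below the rest and was not well above background, and the other two DDC injury arrays lay within the no-injury range or above it on the relative scale. The difference was -0.75 ± 1.15 (SE, limma adjusted p = 0.662), and its sign turned to 0.31 without DDC injury replicate 1 (adjusted p = 0.334). The second probe, for the same accession, gave 1.74 to 2.39 intensity units and was not well above background on any array, so the probes of this gene cannot be set against each other.

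Fewer endothelial, stellate or fibroblast, and leukocyte markers were well above background on DDC injury replicate 1, where Pdpn was lowest, than on any other array. This was not particular to these lists. Of 10 hepatocyte markers 6 were on that array, against 7 to 9 on the others. Of 30 other mesothelial genes 26 were, against 27 to 30. For cholangiocyte markers DDC injury replicates 1 and 2 were equal at 13. Of 13 endothelial markers, 5 were well above background on DDC injury replicate 1. There were 10 on each of the other DDC injury arrays and 10 to 12 on the no-injury arrays. The summed relative signal of the endothelial list was 0.893 on DDC injury replicate 1, 1.04 and 1.34 on replicates 2 and 3, and 2.15 to 2.40 on the no-injury arrays. Of 22 stellate cell and fibroblast markers, 13 were well above background on DDC injury replicate 1, 15 and 17 on replicates 2 and 3, and 15 to 17 on the no-injury arrays. The summed signals of this list were 39.5 to 42.4 after DDC injury and 39.5 to 41.6 without, and came mostly from the bright probes of the matrix genes Fbln2 and Ecm1, so they say little of the other markers. For 9 leukocyte markers the counts were 6, 8 and 8 on DDC injury arrays 1, 2 and 3 and 7 to 8 without injury. Their summed signals were 2.97 to 6.45 and 7.59 to 7.92, mostly from the bright probe of Cd14, which did not pass (limma adjusted p = 0.235). Single markers did not all have their lowest value on DDC injury replicate 1. Of genes used to mark lymphatic endothelium, all named after their values were seen, Lyve1 gave 2.31, 26.2 and 72.9 intensity units on DDC injury arrays 1, 2 and 3, Prox1 gave 9.97, 2.76 and 5.39, and Flt4 gave 655, 302 and 446. Lyve1 was thus lowest on replicate 1. Prox1 was not well above background on any DDC injury array, so its order among them cannot be read. On the relative scale Flt4 gave -1.79, -2.25 and -1.82 on DDC injury arrays 1, 2 and 3. Replicates 1 and 3 were thus close for Flt4, and replicate 2 was lowest. The part of such cells in the Pdpn values was not tested. In these bulk cultures, fewer cells of a type and less RNA per cell cannot be told apart.

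**Figure D4:**
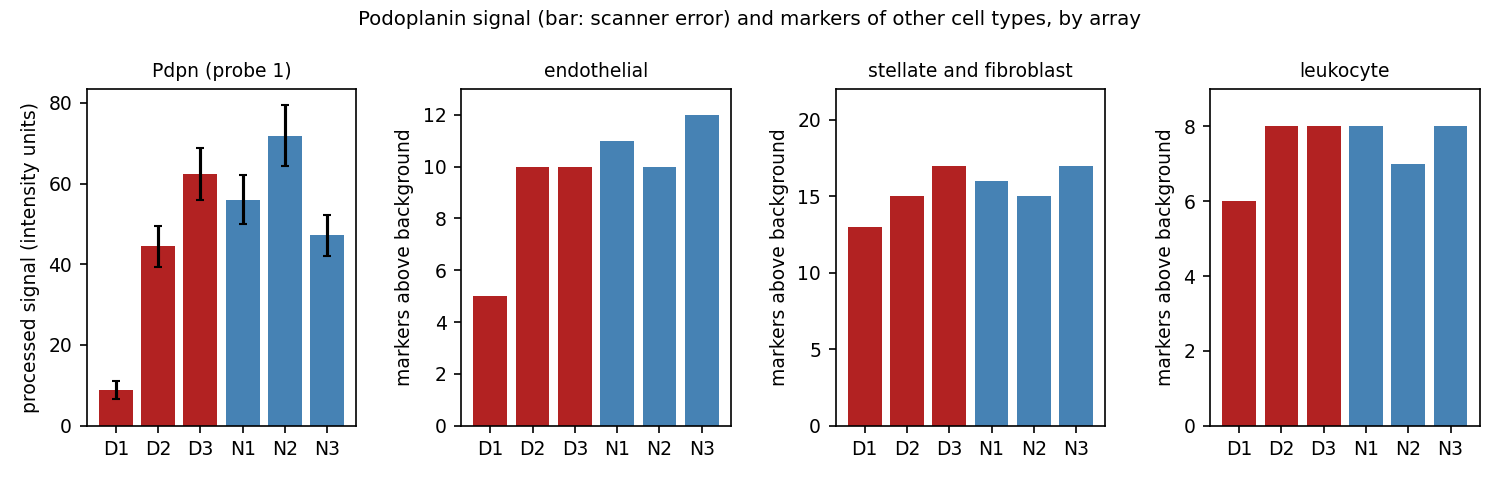
The left panel shows the processed signal of the first Pdpn probe in intensity units, with the error estimated by the Feature Extraction software. The other panels count marker genes well above background for endothelium (of 13), stellate cells and fibroblasts (of 22) and leukocytes (of 9). Arrays D1 to D3 are DDC injury and N1 to N3 no injury. The lowest Pdpn signal, 8.73 units, and the lowest counts, 5, 13 and 6, are those of DDC injury array 1. The count of hepatocyte markers, not shown, was also lowest there, at 6 of 10.

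Lrrn4, a leucine-rich repeat membrane protein, and Calb2, the calcium-binding protein calretinin, did not pass the filter. Lrrn4 gave 17.5, 11.8 and 14.4 intensity units on DDC injury arrays 1, 2 and 3 and 3.16, 2.44 and 6.07 on no-injury arrays 1, 2 and 3. It was well above background on DDC injury arrays 1 and 3 and on no array without injury, with measured means of -6.91 and -9.36. Since DDC injury array 2 and all no-injury arrays lay at the background, no fold is given. This probe was tested only when the filter on dim probes was dropped, with a limma adjusted p of 0.0174, and its difference of 2.45 was 0.59 with normexp and 0.36 with normexp and quantile normalization. Calb2 gave 2.35 to 10.6 intensity units over the 6 arrays, and only no-injury replicate 3 was well above background. No fold is given for Calb2 or for the second Pdpn probe, since both groups lay at the background.

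The stretch before the gene start is shown for Upk3b, for Gpm6a, the tested marker with the largest difference, and for Bnc1. This sets their composition side by side. RefSeq promoter windows (GRCm38.p6) were held for 6 of the 10 genes, Upk3b, Bnc1, Lrrn4, Gpm6a, Pdpn and Muc16. The 250 bases before the start are given 5′ to 3′ on the gene's strand, at chr5:136038246-136038495 (plus strand) for Upk3b, chr8:54779184-54779433 (plus strand, first of 2 starts) for Gpm6a and chr7:81992300-81992549 (minus strand) for Bnc1. Capitals mark matches, on either strand, to GCGNGGGNG, letters bound by the zinc fingers of both Wt1 and the Egr factors, or to GGAATG, the core bound by TEAD factors.
Upk3b: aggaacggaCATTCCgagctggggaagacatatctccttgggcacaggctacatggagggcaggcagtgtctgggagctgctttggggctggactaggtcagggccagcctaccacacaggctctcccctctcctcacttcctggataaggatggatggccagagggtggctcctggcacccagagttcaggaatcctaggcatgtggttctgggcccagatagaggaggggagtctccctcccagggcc
Gpm6a: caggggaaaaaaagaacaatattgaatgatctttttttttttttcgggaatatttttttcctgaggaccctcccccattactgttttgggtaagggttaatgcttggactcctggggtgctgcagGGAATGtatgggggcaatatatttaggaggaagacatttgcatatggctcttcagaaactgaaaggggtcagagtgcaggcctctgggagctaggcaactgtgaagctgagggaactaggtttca
Bnc1: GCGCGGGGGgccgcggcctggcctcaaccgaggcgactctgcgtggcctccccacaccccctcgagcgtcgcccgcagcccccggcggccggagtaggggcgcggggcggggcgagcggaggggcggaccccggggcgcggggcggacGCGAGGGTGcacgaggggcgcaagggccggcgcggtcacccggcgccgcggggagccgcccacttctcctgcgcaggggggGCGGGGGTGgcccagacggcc
The GCGNGGGNG letters matched 3 times in the Bnc1 window, which is 83.6% G and C, and in none of the other member windows, against 10.5% of 32851 windows of this length with a match. GGAATG matched once each in the windows of Upk3b, Lrrn4 and the first start of Gpm6a, against 12.6% of all windows. AGATAA, read by GATA factors (9.99% of windows), and CACCTG, an E-box of Snail and Zeb factors (17.2%), matched in none of the 7 member windows. These matches are descriptions of letters and not sites of binding.

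Other genes reported in mesothelium were taken from a list of 30, of which 27 were tested through their brightest probe. Of these, 1 rose and 7 fell, with a median of -0.63, against 16.2% higher, 14.6% lower and a median of -0.07 over all 15618 named genes tested. With normexp the list median was -0.23, and that over all named genes tested 0.07. Upk1b, the uroplakin partner of Upk3b, fell from 6794, 6969 and 6962 intensity units on no-injury arrays 1, 2 and 3 to 28.6, 23.0 and 27.8 on DDC injury arrays 1, 2 and 3. The groups lay far apart, with a difference of -7.73 ± 0.18 (SE, limma adjusted p = 0.00107), and the limma adjusted p was 0.0429 with the 3 arrays without injury averaged, where the lone no-injury sample is assumed to vary like the DDC injury samples. Igfbp5, a binding protein of insulin-like growth factors, fell by 2.71, Fgf18, a fibroblast growth factor, by 2.45 and the tight junction claudin Cldn15 by 1.21. Cldn15 is a dim probe, and its difference was -0.38 with normexp and -0.59 in the deposited values. The epithelial cadherin Cdh1 fell by 0.97 ± 0.11 (limma adjusted p = 0.00755), while Cav1, a coat protein of caveolae, rose by 1.73 ± 0.30 (limma adjusted p = 0.0194). Krt18 (0.44, limma adjusted p = 0.0992), Krt7 (0.16, 0.495) and Krt19 (0.37, 0.258), keratins of simple epithelia, did not pass, and Krt8 was not tested, with 1 no-injury value left out as an outlier. Aldh1a2, which makes retinoic acid in the embryonic coelomic epithelium, differed by -1.12 and did not pass (limma adjusted p = 0.368). It is a dim probe, and its difference was -0.27 with normexp and -0.37 without DDC injury replicate 1. With all 3 arrays without injury averaged, limma called 0 of the 27 higher and 1 lower (1 and 7 at an unadjusted p under 0.05).

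Transcription factors of the coelomic epithelium and septum transversum went both ways. Of 14, 12 were tested, and 2 rose and 4 fell, with a median of -0.59, against 16.2% higher and 14.6% lower over all named genes. The median of this list was -0.05 with normexp and -0.305 without DDC injury replicate 1, so its size is not settled. With all 3 arrays without injury averaged, and likewise without no-injury replicate 2, limma called 1 higher and 0 lower (2 and 4 at an unadjusted p under 0.05), and without DDC injury replicate 3 it called 2 higher and 2 lower. Tbx18, a T-box factor of epicardium and septum transversum, gave 231, 89.7 and 153 intensity units on DDC injury arrays 1, 2 and 3 and 9.35, 7.00 and 5.49 on no-injury arrays 1, 2 and 3. None of the no-injury values was well above background, so Tbx18 met the filter through the DDC injury arrays alone. With the dim values set as for Upk3b above, it was 17.2-fold higher after DDC injury by the processed signal. This too is not a strict bound. Its measured difference was 4.69 (limma adjusted p = 0.00197). Isl1, a LIM homeodomain factor of cardiac and neural progenitors, rose by 5.13 ± 0.37 (SE, limma adjusted p = 0.00326), with 1 of 3 no-injury arrays well above background. Meis1 fell by 1.29, Nr2f2, which encodes COUP-TFII, by 1.20, Meis2 by 1.11 and the GATA factor Gata6 by 0.75, with limma adjusted p from 0.00705 to 0.0309. Gata4, a GATA factor of septum transversum mesenchyme, differed by 0.48 (limma adjusted p = 0.0748), and Tcf21 by -0.32 (adjusted p = 0.906). Tcf21 ranged from -10.12 to -5.56 over the DDC injury arrays and from -8.63 to -5.23 over the no-injury arrays, so no difference could be seen at this spread. With normexp Tbx18 differed by 1.77 and Isl1 by 2.37, and in the deposited value table by 2.44 and 3.11. The fold given for Tbx18 thus holds for the processed signal only.

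Family members of the markers were mostly dim or did not pass. Of 26, 16 were tested, 1 rose and 2 fell, with a median of -0.68, against 16.2% higher and 14.6% lower over all named genes. With normexp the median of this list was -0.14. Without no-injury replicate 2, and with all 3 arrays without injury averaged, limma called 0 higher and 1 lower (1 and 2 at an unadjusted p under 0.05), and without DDC injury replicate 1 it called 1 higher and 5 lower. Gpm6b, the closest relative of Gpm6a, rose by 1.80 ± 0.36 (SE, limma adjusted p = 0.0284), from 1207, 1285 and 1187 intensity units without injury to 3976, 4499 and 2311 after DDC injury on arrays 1, 2 and 3. Gpm6a and Gpm6b thus differed in sign, at -5.02 and 1.80, and the difference between them was not tested. Upk1b (above) and S100g, a vitamin D-dependent calcium-binding protein (-0.86, limma adjusted p = 0.0282), fell. Lrrn1, Lrrn2 and Lrrn3, relatives of Lrrn4 named after their values were seen, were each higher on DDC injury replicate 1 than on replicates 2 and 3. On DDC injury arrays 1, 2 and 3 Lrrn3 gave 182, 9.24 and 5.26 intensity units and Lrrn1 gave 104, 7.67 and 6.98. On no-injury arrays 1, 2 and 3 Lrrn3 gave 3.87, 6.09 and 8.32 units and Lrrn1 gave 132, 125 and 128. DDC injury replicate 1 thus lay above the no-injury level for Lrrn3 and near it for Lrrn1. Gpm6a was also higher on DDC injury replicate 1, as given above.

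Of 14 linkers and binding partners of the membrane markers, all tested, 4 rose and 1 fell, against 16.2% higher and 14.6% lower over all named genes. The median of this list was -0.08, and 0.09 with normexp. Slc9a3r2, a scaffold that ties podocalyxin to ezrin, fell by 1.42 ± 0.16 (SE, limma adjusted p = 0.00786). Lgals3, a galectin that binds podoplanin, rose by 0.64, the hyaluronan receptor Cd44 by 0.62, Wtap, a protein first isolated as a partner of Wt1, by 0.58, and radixin, Rdx, by 0.50, with limma adjusted p from 0.0219 to 0.0458. Other probes of Cd44 differed by 0.06 to 1.77, and another of Wtap by -0.42, so these calls depend on the probe. Ezrin, Ezr, and moesin, Msn, did not pass. With all 3 arrays without injury averaged, limma called 0 of the 14 in either direction (1 higher and 1 lower at an unadjusted p under 0.05), and likewise 0 without no-injury replicate 2 (2 and 1 unadjusted).

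Genes reported elsewhere as direct targets of Wt1, all 18 of them tested, showed 5 that rose and 3 that fell, with a median of 0.34, against 16.2% higher and 14.6% lower over all named genes. Podxl, described above, is one of them. Gas1, a membrane co-receptor of hedgehog proteins, rose from 19.1, 19.1 and 28.4 intensity units on no-injury arrays 1, 2 and 3 to 562, 571 and 362 on DDC injury arrays 1, 2 and 3, a difference of 4.85 ± 0.30 (SE, limma adjusted p = 0.0024). Snai1, a repressor of epithelial genes, rose by 2.53, the growth factor gene Pdgfa by 1.05 and epiregulin, Ereg, by 0.97. The Pdgfa value of DDC injury replicate 3 was left out as an outlier, and another probe of Pdgfa differed by 1.06. With normexp Gas1 differed by 3.13 and Snai1 by 1.29. Wnt4, a signal of kidney and gonad development, fell by 1.49, Cdh1 by 0.97 and the receptor Igf1r by 0.76. These genes went both ways while Wt1 itself was lower on all DDC injury arrays. Without no-injury replicate 2 limma called 0 of the 18 in either direction (4 higher and 3 lower at an unadjusted p under 0.05), and with all 3 arrays without injury averaged 1 higher and 0 lower (4 and 3 unadjusted).

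**Figure D5:**
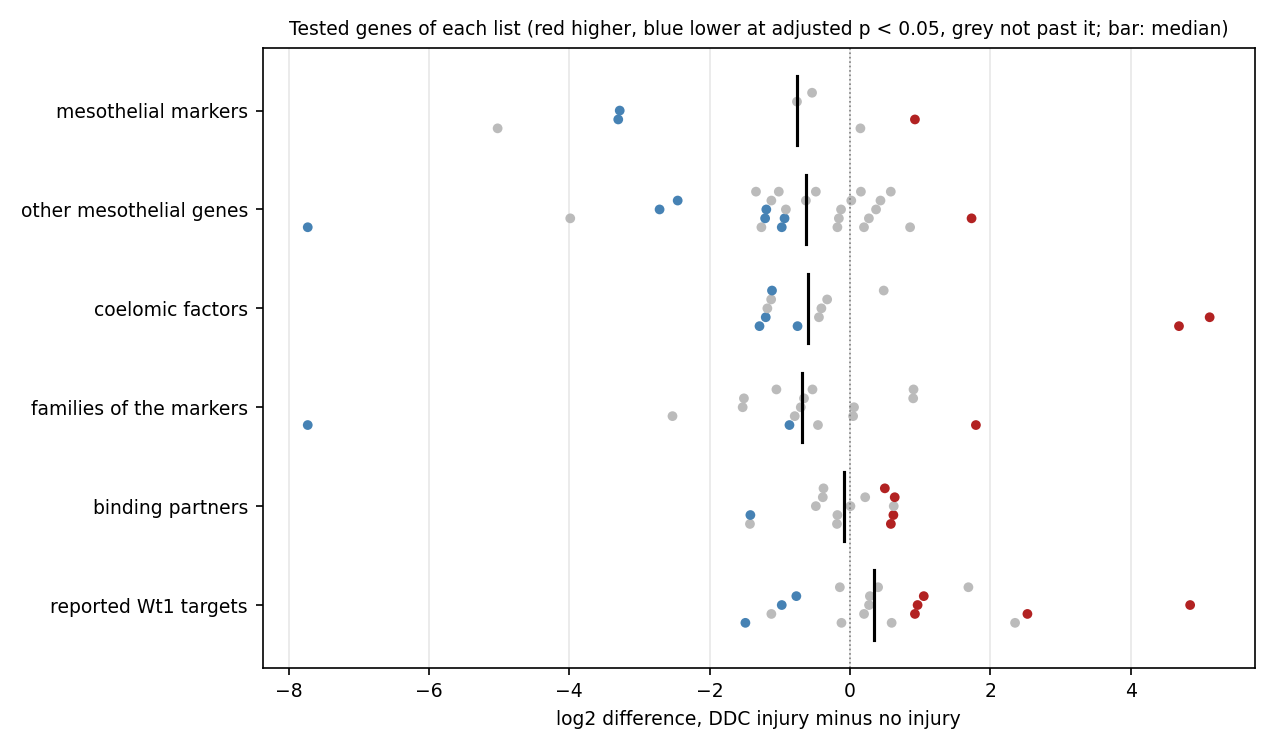
Each dot is a tested gene of 1 list, placed by its log2 difference, DDC injury minus no injury, with red for genes called higher, blue for genes called lower and grey for genes that did not pass an adjusted p of 0.05. Black bars are list medians over tested genes, from -0.75 for the mesothelial markers to 0.34 for reported Wt1 targets, and each of the 6 lists shown holds genes called in both directions.

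The mesothelial label was set against markers of the other cell types of liver. Cd63, by which the cells had been sorted, was well above background on all 6 arrays and differed by -0.11 (limma adjusted p = 0.677). Of the 9 measured mesothelial genes, 5, 4 and 7 were well above background on DDC injury arrays 1, 2 and 3, and 7, 7 and 8 on no-injury arrays 1, 2 and 3. Of 16 cholangiocyte markers, 13 to 15 and 14 to 16 were, so the mesothelial set does not stand alone in these cells. Beside the counts that follow stand the shares over all named genes, 16.2% higher and 14.6% lower. Of 14 cholangiocyte markers tested, 6 fell and 0 rose (0 at an unadjusted p under 0.05), with differences of -8.69 for Prom1 and -2.58 for Epcam (-1.45 with normexp) among those that fell, and the list's summed relative signal was 73.3 to 82.3 after DDC injury and 91.8 to 94.8 without. Of 9 hepatocyte markers tested, 3 fell and 0 rose (0 unadjusted), with summed signals of 11.1 to 17.8 and 29.8 to 34.0. The hepatocyte sums came mostly from the bright probes of Ttr, which fell by 3.94, and Hnf4a, which did not pass, so they say little of the other markers. Of the tested genes of the other lists, 1 stellate or fibroblast marker rose and 2 fell, 3 endothelial markers and 1 leukocyte marker fell, and 0 of either rose (0 unadjusted). Without no-injury replicate 2, and with all 3 arrays without injury averaged, limma called 1 cholangiocyte marker lower (5 at an unadjusted p under 0.05) and 0 markers lower in the hepatocyte, endothelial, leukocyte and stellate or fibroblast lists (3, 3, 1 and 2 unadjusted). The part of these cell types in the differences of the mesothelial markers was not tested.

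The patterns nearest to the bright markers were sought among 13158 further genes that every array measured well above background, by the root-mean-square distance between log2 values centred on each gene's own mean. Those nearest to Msln were Anxa1 (0.0462) and Rps28 (0.0492), to Bnc1 Pygb (0.0285) and Man2b1 (0.0332), and to Podxl Smurf1 (0.0263) and 4930503L19Rik (0.0350). These distances are descriptions over 6 arrays in 2 groups.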

How the data were processed

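Expression was measured on 6 Agilent 1-colour (Cy3) arrays of cultured CD63-sorted mouse liver cells. Spot intensities were read by Feature Extraction 11.0.1.1 and deposited unnormalized between arrays, per the file headers. The columns used were the processed signal, background-subtracted and detrended within the array, and the median raw signals of spot and local background. A table deposited by the authors gives log2 values normalized between arrays by the authors (column medians 6.921 to 6.927). The submitters' processing notes name limma without a version, and the starting column is not given in the sources used here. By rank this table followed the raw median signal (Spearman's rho 0.996 to 0.999 across spots) and the processed signal (0.991 to 0.995).

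Outlier spots were left out and repeated spots averaged. Probes were named by transcript accession through RefSeq (GRCm38.p6): 27234 had 1 symbol, 0 several and 12195 none. The arrays' annotation is of an older build. Each log2 processed signal was set relative to its array's 75th percentile. Probes well above background on at least 3 arrays, with at least 2 values per group, were tested in R 4.3.3 by limma 3.58.1 (two-sided, lmFit with eBayes, Benjamini-Hochberg over all probes, threshold 0.05). Intervals are 95%. Alternatives were normexp (offset 50), quantile normalization, the deposited log2 values, other filters, other ways of counting the arrays, and each array left out.

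The markers, gene lists and choices were made with earlier results of these data known. Named genes were all 10 markers, up to 4 genes each way per list by difference among those past the threshold, and a fixed set of lineage genes. For the other lists a gene is its brightest probe. Same-numbered arrays of the groups were not paired: their deviations from the group means correlated at 0.12, 0.036 and 0.083.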

Additional observations from a re-analysis of the deposited data

How the results depend on the processing

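The calls rest mainly on how the no-injury arrays are counted. With the arrays without injury averaged into 1 sample, limma called 279 of all probes higher and 131 lower, and 0 and 0 of the marker probes (0 and 2 at an unadjusted p under 0.05). With all 6 arrays as separate samples 5929 probes were lower and 4 marker probes were lower. With the scan as a random block 2770 probes were higher, 2279 lower and 0 marker probes higher (1 at an unadjusted p under 0.05). With 1 probe per gene the counts over all genes were 2761 and 2463, and without the filter on dim probes 2494 probes were lower. Of the marker probes, 4 were lower with normexp and quantile normalization, in the authors' values and with an intensity trend, and 1 when every array had to be well above background. The median of the marker probes was 0.043 with normexp and the 75th percentile and 0.061 within the scan day that held both groups. Msln differed by -0.074 with quantile normalization, by -0.10 with normexp and quantile normalization and by -0.10 in the authors' values, and the first Pdpn probe by 0.31 within the scan day. The cause of these changes was not tested.

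Leaving out 1 array at a time gave 252 to 5595 probes higher and 116 to 4776 lower, 0 to 1 marker probes higher and 0 to 3 lower, a median of the marker probes from -0.64 to 0.061, and -1.38 to 0.31 for the first Pdpn probe. The lowest counts were those without no-injury replicate 2, which, like averaging the arrays without injury, leaves 1 no-injury sample assumed to vary like the DDC injury samples. With the replicate block, on 6 arrays, 4336 probes were higher and 4184 lower, 1 marker probe was higher and 3 lower, and Gpm6a passed (-5.00, limma adjusted p = 0.0352), as it did on 6 arrays without the block (0.0162), over a range of 0.00426 to 0.255. These numbers do not pair the samples. Dim probes limit the sizes given for Wt1, Upk3b, the first Pdpn probe, Lrrn4, Cldn15, Aldh1a2, Tbx18, Isl1, Snai1, Gas1 and Epcam. Their differences were smaller with normexp by over 1.5 times.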
